A study of Mus musculus with 6 samples.

Results

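The angiotensin system is described here by 5 genes: Agtr2, Agtr1a, Ace, Agt and Agtrap. They were chosen by gene symbol, with the difference of Agtr2 between chromosomally unstable and stable fibroblasts already known, so that difference is given as a description with no test. Of the 12393 genes that the platform annotation names, 4 of the 5 members had at least 1 probe set naming them alone, 6 probe sets in all. Agtr1a had no such probe set and is not analysed here. Transcripts were measured on 6 Affymetrix arrays, 1 for each line of mouse embryo fibroblasts, cells cultured directly from embryos. The unstable lines were 2 BubR1 H/H lines, in which BubR1, a kinase of the mitotic checkpoint, is reduced by a hypomorphic allele and CDC20 is wild type, and 1 CDC20 AAA/AAA line, with an allele of the mitotic activator CDC20 that the labels also call hypomorphic and wild-type BubR1. The stable lines were 2 BubR1 +/+ lines and 1 CDC20 +/+ line, wild type for both genes. All lines were grown for 2 passages in DMEM with serum under the same conditions, and no angiotensin or blocker of its receptors is named in the labels. The numbers 9515, 9938 and 10074 in the titles are each shared by 1 unstable and 1 stable line, called a pair here. The BubR1 lines form pairs 9515 and 9938, and the CDC20 lines form pair 10074. As a check of the labels, Bub1b, the gene of BubR1, lay at 6.15 and 6.43 in the BubR1 H/H lines, against 7.81 and 8.51 in their stable partners. It lay at 7.00 in the CDC20 AAA/AAA line, which carries wild-type BubR1, against 7.61 in its partner. Cdc20 lay at 10.03 in the CDC20 AAA/AAA line, against 10.83 in its partner, and was also lower in both BubR1 H/H lines than in their partners (differences of -0.10 and -0.81), so its level does not single out the line with the CDC20 allele. Since the labels leave unstated whether each line is a separate embryo, p-values cover only the spread between these lines, and precision is limited by the small number of arrays.

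Angiotensinogen, the product of Agt, is cut by renin and then by the angiotensin-converting enzyme, encoded by Ace, to give the peptide angiotensin II. The peptide acts through a pair of G protein-coupled receptor types. The type 1 receptor, encoded in the mouse by Agtr1a and Agtr1b, drives contraction, growth and matrix production, and Agtrap encodes a membrane protein that binds this receptor and promotes its internalization. The type 2 receptor, encoded by the X-linked gene Agtr2, is abundant in fetal mesenchyme, declines after birth, and is known for opposing many type 1 responses.

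The members differ in the sequence before their transcription starts. The 250 bases upstream of the start are shown for the 2 genes detected here, Agtr2 and Agtrap, and for Agt, which stayed under the detection floor used here but has a similar element to that of Agtr2. They come from RefSeq promoter windows of the build GRCm38.p6, which held windows for all 4 measured members, and are written 5′ to 3′ on the strand of the gene. Capitals mark matches to the motifs searched.
Agtr2, chrX:21484374-21484623, plus strand: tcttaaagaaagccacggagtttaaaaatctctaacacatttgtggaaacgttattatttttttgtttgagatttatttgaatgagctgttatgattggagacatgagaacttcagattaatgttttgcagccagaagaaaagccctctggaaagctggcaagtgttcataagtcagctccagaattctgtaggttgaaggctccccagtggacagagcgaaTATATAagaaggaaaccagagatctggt
Agt, chr8:124569707-124569956, minus strand: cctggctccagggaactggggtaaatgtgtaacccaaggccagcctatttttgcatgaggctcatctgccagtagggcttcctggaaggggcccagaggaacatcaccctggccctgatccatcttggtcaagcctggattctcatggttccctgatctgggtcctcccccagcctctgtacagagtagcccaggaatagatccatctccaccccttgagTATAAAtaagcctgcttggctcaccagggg
Agtrap, chr4:148088065-148088314, minus strand: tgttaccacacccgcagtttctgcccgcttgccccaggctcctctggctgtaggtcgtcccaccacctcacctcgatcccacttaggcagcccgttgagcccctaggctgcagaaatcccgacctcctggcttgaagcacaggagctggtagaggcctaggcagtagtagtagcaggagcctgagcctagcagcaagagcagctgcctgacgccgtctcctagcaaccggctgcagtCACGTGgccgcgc

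The motifs, chosen with these sequences in view, were searched on both strands. They were a TATA box (TATAAA or TATATA), a GC box (GGGCGG), an E-box (CACGTG) and an AP-1 site (TGANTCA). The Agtr2 window held a TATA box 28 to 23 bases before the start and no other of these motifs. The Agt window held its TATA box 30 to 25 bases before the start. Of 32851 such windows over the genome 15.6% held a TATA box. Agtrap had no TATA box, but an E-box 13 to 8 bases before the start, a motif found in 6.02% of windows. The first Ace window, at the upstream start, held a TATA box match on the opposite strand only (TTTATA on the strand of the gene). It also held 4 GC boxes, of which 2 overlap, and 32.7% of windows have a GC box. The second Ace window, at the internal start, held none of these motifs. An AP-1 site occurs in 6.75% of windows, and no window of the members held one. GC content was 38.4% for Agtr2, against 62.8% for Agtrap and 55.6% for Agt. CpG dinucleotides numbered 3 in the Agtr2 window, 12 in that of Agtrap and 0 in that of Agt. These matches describe the letters only, and nothing on the arrays measures what binds there.

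Agtr2 was the member with a large difference: its level was higher in the unstable line of each of the 3 pairs. Its log2 level by probe set 1415832_at was 7.699, 7.653 and 8.329 in unstable lines of pairs 9515, 9938 and 10074, against 6.224, 5.797 and 6.917 in the stable lines of the same pairs. The groups did not overlap: the lowest unstable line, BubR1 H/H of pair 9938, lay 0.74 above the highest stable line, CDC20 +/+ of pair 10074. Groups that do not overlap, with the unstable lines higher, were found for 3.54% of the 8382 genes kept by the filter on low values (log2 of at least 4 on at least 3 arrays). Over the groups the level averaged 7.89 ± 0.38 in unstable and 6.31 ± 0.57 in stable lines (SD, n = 3 each), a difference of 1.58 on the log2 scale or 2.99-fold. Since this contrast was used to choose Agtr2, no test is given for it. In such bulk samples a change in the share of cells with the transcript and a change in RNA per cell cannot be told apart.

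The pair differences of Agtr2 were alike in size. They were 1.48 in pair 9515, 1.86 in pair 9938 and 1.41 in pair 10074 on the log2 scale, or 2.78-fold, 3.62-fold and 2.66-fold higher in the unstable line. Their SD of 0.24 was smaller than the SD of the levels in either group, and the lines of a pair were high or low together. Ranked by the group difference, Agtr2 was number 9 of 8382 genes, and ranked by its smallest pair difference it was number 2. Both ranks rest on the values for which Agtr2 was chosen, so they only describe it. A difference of at least 1 in all 3 pairs was found for 4 genes, or 0.0477% of those kept. Named after their values were seen, the others were Ifit1, Ms4a4d and Gbp3. The plot of pair differences by size and spread shows where Agtr2 lies among all genes.

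**Figure D1:**
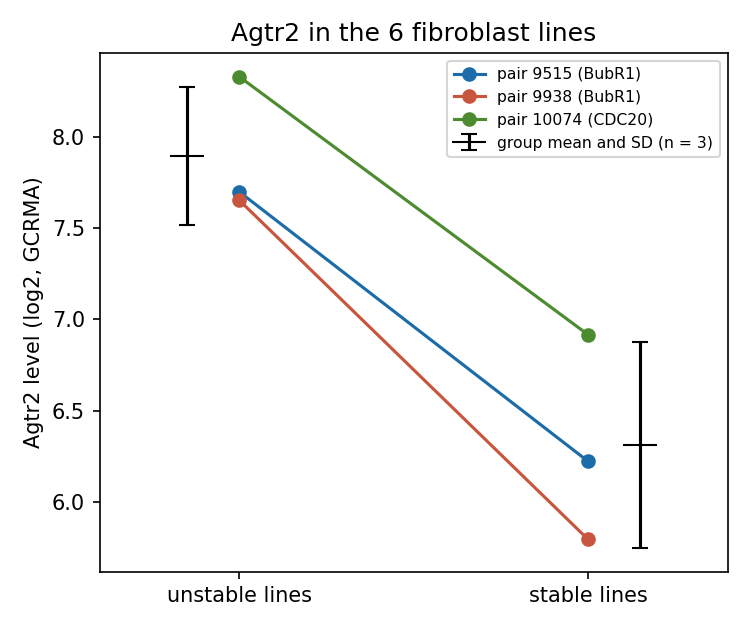
Agtr2 level (log2, vertical axis) in unstable lines (left) and stable lines (right). Points are single lines, coloured lines join the lines of a pair, and black bars are group means with SD (n = 3); the 3 unstable lines lie between 7.653 and 8.329, all above the stable lines.

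**Figure D2:**
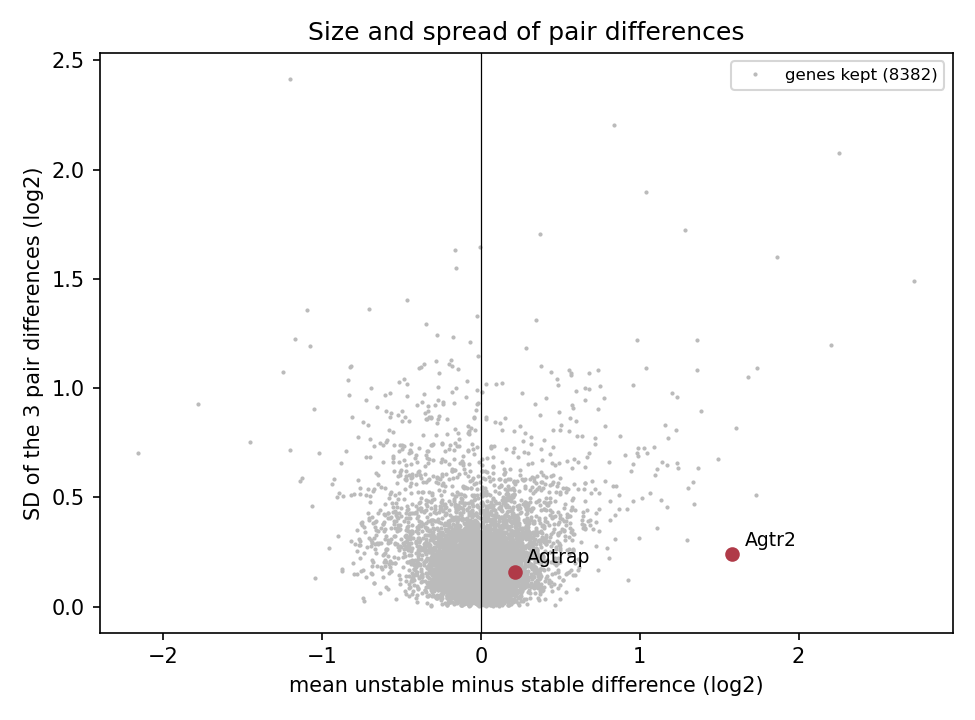
Mean unstable minus stable difference (log2, horizontal) against the SD of the 3 pair differences (log2, vertical), with 1 point for each of 8382 genes. Agtr2 lies at 1.58 with an SD of 0.24, and Agtrap, by its brighter probe set, at 0.21 with an SD of 0.16.

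The order of the Agtr2 levels followed stability first and then the pair. The CDC20 AAA/AAA line stood 0.63 above the next unstable line, whereas the unstable lines of pairs 9515 and 9938 were 0.046 apart, well within the spread of either group. Among stable lines CDC20 +/+ was highest and BubR1 +/+ of pair 9938 lowest, 1.12 apart, so each group had the line of pair 10074 on top and that of pair 9938 at the bottom. The pair means were 6.96, 6.73 and 7.62 for pairs 9515, 9938 and 10074. A difference between the pair means does not use the mean stability contrast. Its test, however, measures error partly by the spread of the pair differences, for which Agtr2 was chosen. The p-values for Agtr2 are therefore given as a description. By limma's F test of the pair number, with stability in the model, Agtr2 did not pass at adjusted p = 0.058 (unadjusted p = 0.0040), where 5.93% of genes passed. With either line of pair 9515 left out, only 1 gene passed that test. The call for Agtr2 moved with the processing: it passed in 3 of 11 alternatives, at adjusted p = 0.048 with the probe sets of each gene averaged (Agtr2 itself has 1), 0.038 with an intensity trend and a robust prior, and 0.035 without the unstable line of pair 9938. Over all 11 alternatives the adjusted p ran between 0.035 and 0.22.

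The effects of BubR1 H/H and of CDC20 AAA/AAA can be set side by side. The BubR1 effect on Agtr2, the mean of 2 pairs, was 1.67, and the CDC20 effect, from 1 pair, was 1.41. They differed by 0.25, given with no test, since both are made of the pair differences for which Agtr2 was chosen. Without the stable line of pair 9938 this was 0.040, and without that of pair 9515 it was 0.47. Over all genes, limma's test of unequal BubR1 and CDC20 effects called 0% of 8382, and 133 had an unadjusted p under 0.05.

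Agtr2 is X-linked, and the embryos differed in sex between pairs. Xist, the RNA that coats the inactive X chromosome, measured 10.700 in the unstable and 11.163 in the stable line of pair 9938, against 2.236 to 2.943 in the remaining 4 lines. Pair 9938 therefore read as female in both lines, and each of these lines had the lowest Agtr2 level of its group. Without pair 9938 the group difference of Agtr2 was 1.44, from pairs 9515 and 10074. The part of sex in the difference between pairs was not tested.

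Agt and Ace, the members that make the peptide, stayed under log2 4 on all 6 arrays. Agt measured 2.167, 1.997 and 2.340 in unstable lines of pairs 9515, 9938 and 10074, against 2.253, 2.213 and 2.111 in the stable lines. These levels overlapped, and the sign of the difference was negative in the BubR1 pairs and positive in the CDC20 pair. Ace was measured by 2 probe sets. The first lay at 2.369, 2.434 and 2.334 in the unstable lines and at 2.397, 2.317 and 2.592 in the stable lines, in the same pair order. The second lay at 2.747, 2.924 and 2.650 in the unstable lines, against 2.806, 2.641 and 2.498 in the stable lines. The groups overlapped for both, and across the 6 arrays the probe sets of Ace correlated at r = -0.34, as a description. Under the floor, differences are of the size of background variation and carry no fold. The highest value of any probe set under the floor was 2.924, of Ace in the unstable line of pair 9938, and the lowest of any above it was 5.797, of Agtr2 in the stable line of the same pair. Agt and Ace did not pass the filter on low values and entered no test.

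**Figure D3:**
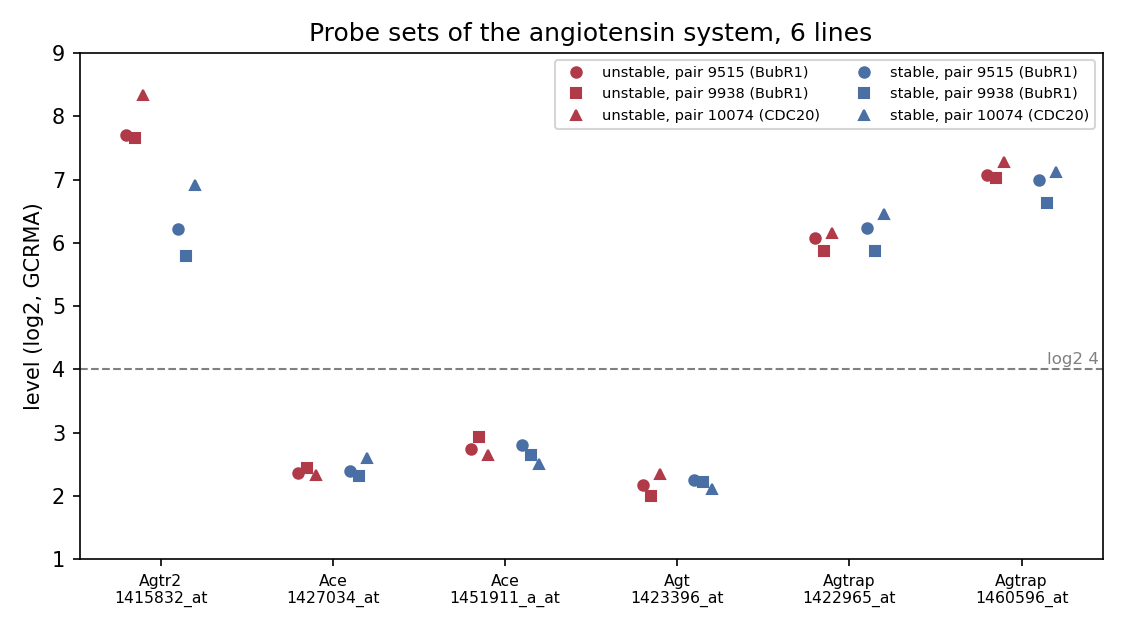
Level (log2) of each of the 6 member probe sets in every line, unstable lines in red left of stable lines in blue, with a marker shape for each pair. The 3 probe sets of Ace and Agt lie under the dashed line at log2 4 on all arrays, and the unstable and stable lines separate for Agtr2 alone among the 6.

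Agtrap, the partner of the type 1 receptor, was detected on all arrays, but its 2 probe sets gave opposite signs. The brighter probe set, 1460596_at, measured 7.079, 7.028 and 7.279 in unstable lines of pairs 9515, 9938 and 10074, against 6.992, 6.635 and 7.118 in the stable lines. The groups overlapped, although the unstable line was higher in each pair, by 0.087, 0.39 and 0.16. The other probe set, 1422965_at, measured 6.078, 5.869 and 6.161 in the unstable lines, against 6.237, 5.874 and 6.454 in the stable lines. By that probe set the unstable line was lower in each pair, by -0.16, -0.0050 and -0.29. The group differences were 0.21 and -0.15 on the log2 scale, each smaller than the SD of the stable lines (0.25 and 0.29), and no direction is given for Agtrap. The same sign in all 3 pairs is common: 16.9% of genes were higher and 19.3% lower in all 3. Both probe sets put the line of pair 9938 lowest and that of pair 10074 highest within either group, as Agtr2 did, and they correlated at r = 0.54 over the 6 arrays. By the brighter probe set the difference between pairs did not pass (adjusted p = 0.23 by limma), nor did that between the BubR1 and CDC20 effects, 0.079 (SE 0.28, adjusted p = 1.00 by limma).

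Other genes of the pathway were taken from 4 lists of 59 genes in all, of which 49 were on the array and 37 passed the filter on low values. No gene of these lists passed the limma test of unstable against stable lines in either direction, where 0% of all 8382 genes passed. At an unadjusted p under 0.05 there were 0 of the 37 and 359 of all genes. Blocked by pair, 0 of the 37 and 0% of all genes passed, with 2 of the 37 and 1019 of all genes at an unadjusted p under 0.05. The median of the 37 log2 differences was -0.066, beside -0.0087 over all genes. Their differences lay between -0.38 and 0.74, below that of Agtr2, which was chosen with its difference known. By group means 15 were higher and 22 lower, beside 47.9% and 52.1% of all genes. In all 3 pairs 4 were higher and 8 lower, beside 16.9% and 19.3% of all genes. Limma's F test of the pair number called 3 of the 37, where 5.93% of all genes passed. These were Mme, described with the enzymes, Nr4a1, an orphan nuclear receptor among the genes induced by angiotensin II (adjusted p = 0.017), and Arrb2, a beta-arrestin that binds activated receptors (adjusted p = 0.046).

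Enzymes that make, trim or degrade angiotensin peptides had mean differences of both signs. Of 16 listed, 12 were on the array, and 8 of these passed the filter. By group means 5 were higher and 3 lower, with a median of 0.045, and the largest difference was that of Mme, 0.44. Anpep, named after its values were seen, varied most between pairs, with differences of 0.221, 1.255 and -0.703 in pairs 9515, 9938 and 10074. Renin had no probe set naming it alone and is not analysed here. Enpep, the aminopeptidase that forms angiotensin III, was under log2 4 in most lines. The chymase gene Cma1 and the cathepsin gene Ctsg, whose products can form angiotensin II without ACE, were under log2 4 on all arrays, with highest values of 2.60 and 2.14. In the fit without a block the smallest unadjusted p values belonged to Dpp3, Prep, Thop1 and Prcp. Dpp3, a dipeptidyl peptidase, differed by 0.11 (SE 0.094). Prep, the prolyl endopeptidase, differed by -0.17 (SE 0.19, and 0.022 without the stable line of pair 9938). Thop1, the thimet oligopeptidase, differed by -0.19 (SE 0.22), and Prcp, the prolylcarboxypeptidase that degrades angiotensin II, by 0.072 (SE 0.097). With the lines blocked by pair the smallest belonged to Mme.

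The neprilysin gene Mme is singled out after its values were seen. Neprilysin cuts angiotensin I to angiotensin 1-7. Mme measured 8.535, 6.420 and 6.816 in unstable lines of pairs 9515, 9938 and 10074, against 8.121, 5.719 and 6.617 in the stable lines. The groups overlapped widely, since pair 9515 stood above the others on both sides, while the unstable line was higher within each pair by 0.41, 0.70 and 0.20. With the lines blocked by pair, Mme had an unadjusted p of 0.016 and did not pass (adjusted p = 0.31 by limma). Its difference between pairs passed limma's F test (adjusted p = 0.012), but not when either line of pair 9515 was left out, at adjusted p = 0.14 without the unstable and 0.13 without the stable one.

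Of the other receptors and receptor partners, 6 of 9 were on the array and only Atp6ap2 passed the filter. Atp6ap2, the prorenin receptor and an accessory subunit of the vacuolar proton pump, differed by -0.078 (SE 0.098). The angiotensin 1-7 receptor gene Mas1, the bradykinin receptor genes Bdkrb1 and Bdkrb2, the apelin receptor gene Aplnr and Zbtb16, a zinc finger protein that binds the type 2 receptor, were under log2 4 on all arrays. Agtr2 was thus the only receptor of an angiotensin peptide among those measured, Agtr2 and Mas1, that was above the floor.

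No signalling gene downstream of the receptors passed the limma test. Of 22 listed, 20 were on the array and 17 were kept, with 5 higher and 12 lower by group means and a median of -0.094. Nox4, an NADPH oxidase that angiotensin II can induce, had the largest difference, 0.74 (SE 0.34, adjusted p = 1.00 by limma), which became 0.48 with the stable line of pair 10074 left out and 1.10 with the stable line of pair 9515 left out. Nox4 measured 9.492, 9.112 and 8.906 in unstable lines of pairs 9515, 9938 and 10074, against 9.140, 8.234 and 7.907 in the stable lines. The unstable line was higher in each pair, but the stable line of pair 9515 lay above the unstable line of pair 10074, so the groups overlapped. With the lines blocked by pair its unadjusted p was 0.0043 and its adjusted p 0.26 by limma. Stat3, a transcription factor activated through JAK kinases, differed by 0.18 (SE 0.11), the receptor kinase gene Grk5 by -0.22 (SE 0.15) and the small GTPase gene Rhoa by -0.13 (SE 0.10). Stat3 was the 1 of the 37 whose groups did not overlap with the unstable lines higher, against 3.54% of all genes. The margin for Stat3 was narrow: its lowest unstable line lay at 9.351 and its highest stable line at 9.341, both of pair 10074.

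Ptpn6, singled out after its values were seen, encodes the phosphatase SHP-1, an effector of the type 2 receptor that is best known from blood cells. Its level was 4.102, 6.668 and 5.011 in unstable lines of pairs 9515, 9938 and 10074, against 3.787, 6.474 and 6.653 in the stable lines. The pair differences were 0.32, 0.19 and -1.64. Macrophage markers beside it had a mean log2 level of 7.555, 10.511 and 9.236 in the unstable lines, against 7.804, 10.400 and 10.354 in the stable lines, also lowest in pair 9515. Their part in the Ptpn6 values was not tested.

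Genes that angiotensin II is known to induce in fibroblasts had small differences on both sides of 0. Of 12 listed, 11 were on the array and kept, with 5 higher and 6 lower by group means and a median of -0.0037. Fos and Egr1, immediate early transcription factors, differed by -0.28 (SE 0.16) and -0.16 (SE 0.17). The collagen gene Col1a1 differed by -0.13 (SE 0.10), and Acta2, the smooth muscle actin of contractile fibroblasts, by -0.086 (SE 0.13), though Acta2 was at 0.013 with its probe sets averaged and at 0.012 without the stable line of pair 10074. None passed the limma test.

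**Figure D4:**
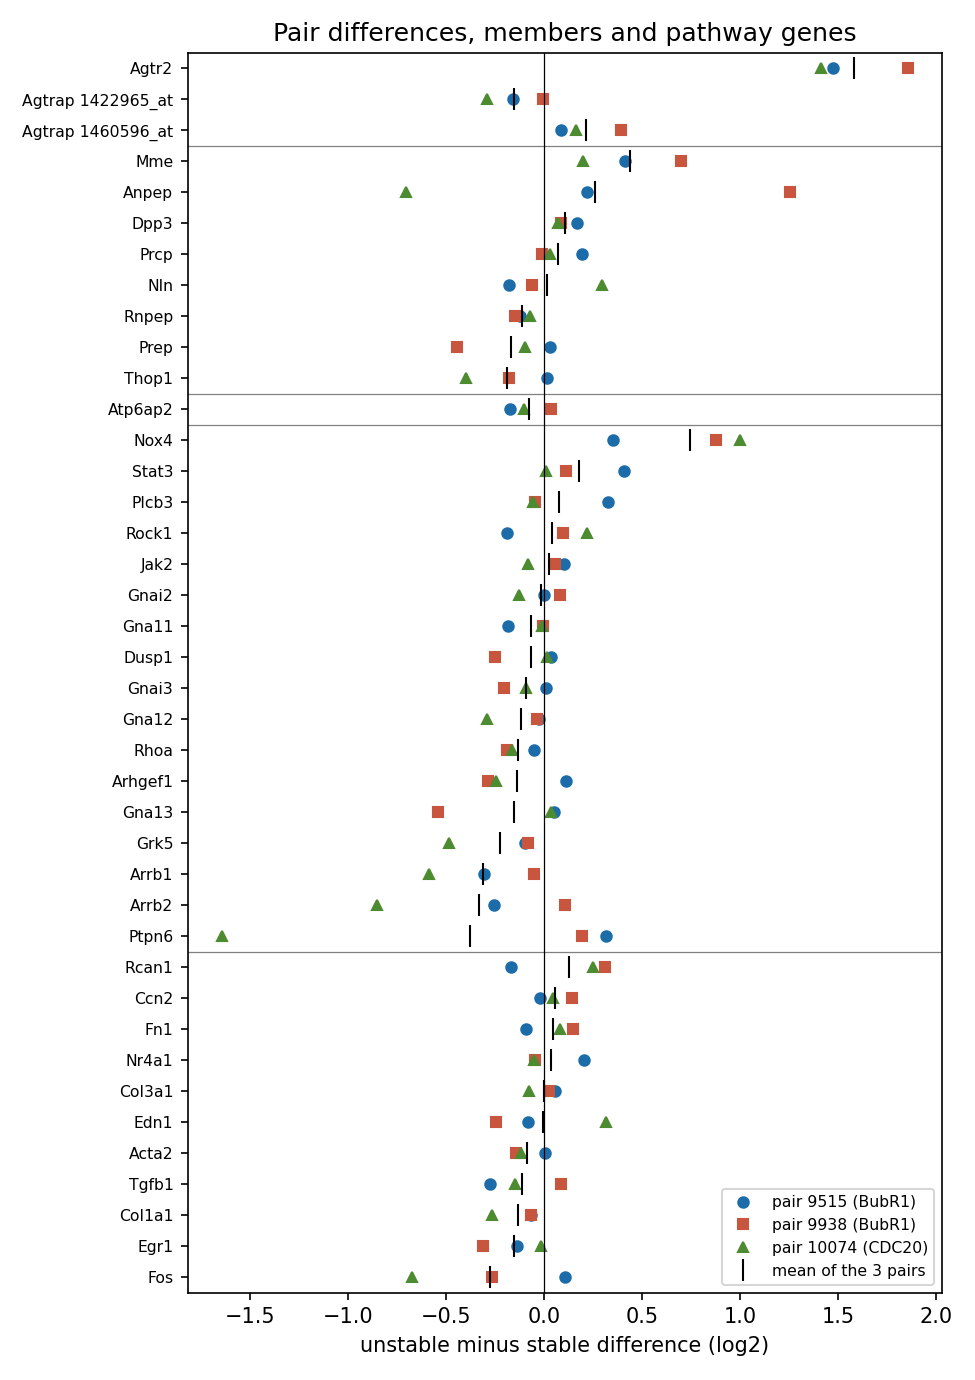
Unstable minus stable difference (log2, horizontal) within each pair for Agtr2, both Agtrap probe sets and the 37 pathway genes kept, with black ticks at the mean of the 3 pairs and grey lines between lists. Agtr2 lies between 1.41 and 1.86 in every pair, while the means of the 37 lie between -0.38 and 0.74.

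The genes whose levels followed Agtr2 most closely were looked for among the 811 other genes with an SD of at least 0.5 over the 6 arrays, by Pearson's r. The highest r belonged to Aoc3, a vascular amine oxidase (0.98), Sytl2, a vesicle protein (0.94), Trim34a, a tripartite motif protein (0.92), and the chemokine genes Ccl8 (0.92) and Cxcl10 (0.92). Aoc3 measured 5.602, 5.426 and 5.818 in unstable lines of pairs 9515, 9938 and 10074, against 4.482, 4.202 and 5.179 in the stable lines. Its groups did not overlap, and it kept the pair order of Agtr2 within both groups. The lowest r belonged to Mms22l, a replication fork protein (-0.98), Aldh3a1, an aldehyde dehydrogenase (-0.98), and Pimreg, a mitotic regulator (-0.96). Aldh3a1 lay near the floor of log2 4, at 4.007, 3.864 and 3.490 in unstable lines of pairs 9515, 9938 and 10074. In the stable lines it lay at 4.524, 4.938 and 4.195. Mms22l measured 6.822, 6.917 and 6.333 in the unstable lines, against 7.458, 7.759 and 7.258 in the stable lines. All points share the 6 arrays and the group difference, so these values are descriptions with no test.

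**Figure D5:**
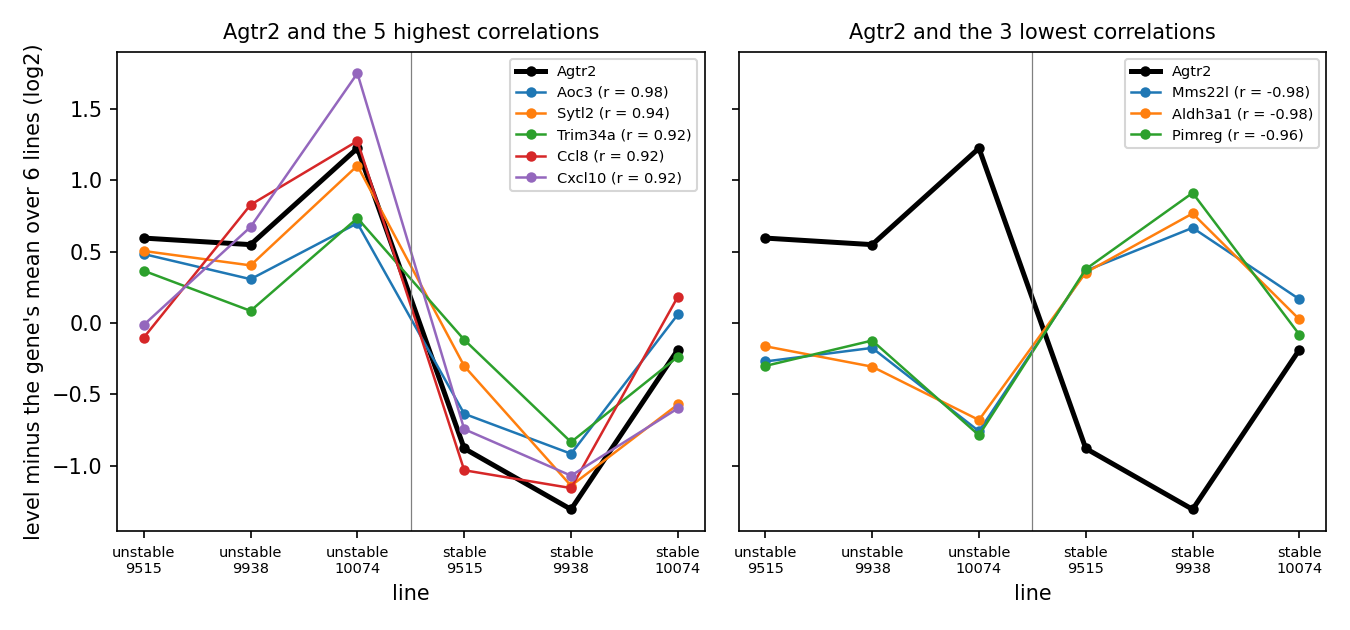
Level minus the mean of the gene over the 6 lines (log2, vertical) for Agtr2 (black) with the 5 genes of highest r (left panel) and the 3 of lowest r (right panel), unstable lines left of stable lines. Connecting lines only guide the eye; r runs from 0.92 to 0.98 on the left and from -0.98 to -0.96 on the right.

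Markers of the labelled and of other cell types were read beside Agtr2. All 10 fibroblast markers were detected, with mean log2 levels of 11.69 to 11.89 in unstable and 11.50 to 12.00 in stable lines. The 10 smooth muscle and pericyte markers had mean log2 levels of 8.715, 8.551 and 8.616 in unstable lines of pairs 9515, 9938 and 10074. In the stable lines these were 8.386, 7.956 and 8.407, so the groups did not overlap. How often a mean over 10 genes separates like this was not examined. Among the 10 is Kcnj8, which was under log2 4 in most lines and was not kept. Of the 9 kept, 7 were higher by group means, where 47.9% of genes were, most of all Myh11 (1.16) and Rgs5 (1.14). Neither Myh11 nor Rgs5 passed the limma test, without or with the pair block. Acta2 and Smtn were lower, by -0.086 and -0.051. In all 3 pairs 5 of the 9 were higher, where 16.9% of genes were, and the pair medians were 0.25, 0.46 and 0.23. The log2 of their summed level, in which Acta2 and Tagln weigh most, did overlap, at 14.20 to 14.41 in unstable and 14.17 to 14.46 in stable lines. Their part in the Agtr2 difference was not tested. Most endothelial markers were low, with 4 of 8, among them Pecam1 and Cdh5, under log2 4 on all arrays. Flt1 was not, at 9.714 to 10.597 over the lines. The mean levels of the 8 overlapped at 4.09 to 4.19 in unstable and 4.07 to 4.22 in stable lines. Adipocyte markers, of which Adipoq and Lipe were under log2 4 on all arrays, overlapped in their mean levels at 5.93 to 6.25 in unstable and 5.92 to 6.68 in stable lines. Of the 5 kept, 2 were lower in all 3 pairs, where 19.3% of genes were: Pparg, the nuclear receptor of fat cell formation, by -0.59, -0.79 and -0.63 in pairs 9515, 9938 and 10074, and Cebpa, a transcription factor of fat and myeloid cells, by -0.32, -0.41 and -1.09. Neither Pparg nor Cebpa passed the limma test, without or with the pair block. The others kept, Cd36, Fabp4 and Lpl, had mixed signs. They were higher in the unstable line of pair 9515, by 0.33, 0.125 and 0.29. In pair 9938 Cd36 and Fabp4 were higher, by 1.043 and 0.133, and Lpl was lower, by -0.106. In pair 10074 Cd36, Fabp4 and Lpl were lower, by -0.54, -0.32 and -0.51. All 12 macrophage markers were above log2 4 on all arrays. All 12 were lower in unstable lines by group means, with a median of -0.41, where 52.1% of genes were lower, but only 2 were lower in all 3 pairs. Their pair medians were -0.23, 0.10 and -1.20, and their groups overlapped at mean levels of 7.55 to 10.51 in unstable and 7.80 to 10.40 in stable lines. Their mean levels, given beside Ptpn6, ran in a different order over the lines from those of Agtr2. The part of adipocyte and macrophage markers in the Agtr2 difference was not tested.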

How the data were processed

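The deposited values are log2 values of 22626 probe sets on 6 arrays. They were made by the authors with GCRMA 2.28.0 and R 2.15.3, per the submitters' processing notes. GCRMA corrects background and normalizes arrays to a common distribution, so a line that is brighter throughout would not show as such. Array medians lay between 6.16 and 6.20. Names came from the platform annotation, in which 20380 probe sets had 1 symbol, and 691 with several and 1555 not listed were left out. Each gene of the tests was its probe set with the highest mean. The 8382 genes that reached log2 4 on 3 or more arrays were fitted without a block by limma 3.58.1 in R 4.3.3 (lmFit, eBayes), with two-sided p-values adjusted by Benjamini-Hochberg and a threshold of 0.05. The SEs quoted come from fits without a block and so do not use the pairing of the lines. An exact permutation test of 3 lines against 3 cannot go below p = 0.1 and was not used. The tests were tested on simulated data.

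Members and lists were chosen with earlier results of these data known. Named were all member probe sets, up to 4 kept genes of each pathway list by unadjusted p without the pair block, and the genes of highest and lowest r to Agtr2. Deviations from the group means were shared by lines of the same number (r = 0.75, 0.61 and 0.55 over probe sets, against -0.60 to 0.078 for other lines), so the title numbers were taken to pair the lines. Deviations cancel within a group, so positive r for same numbers pulls the other r values down, and the contrast is partly built in. Alternatives were other filters, an intensity trend with robust prior, renormalization, averaged probe sets, the pair block, and leaving out lines or pairs.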

Additional observations from a re-analysis of the deposited data

Results flagged for a closer look

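The difference of Agt was 0.23 on the log2 scale in the CDC20 pair and below 0 in both BubR1 pairs, at -0.086 and -0.22; all these levels were under log2 4, and the difference between the pairs was not tested.

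The difference of Ptpn6 was -1.64 in the CDC20 pair and above 0 in both BubR1 pairs, at 0.32 and 0.19; no gene passed the test of unequal BubR1 and CDC20 effects.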

How the results depend on the processing

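The group difference of Agtr2 was 1.60 with renormalized arrays, 1.58 with the pair block, and between 1.32 and 1.88 when lines or pairs were left out. The 3 probe sets under log2 4 were also under log2 3, and no further one was under log2 5. The count of genes that differed between unstable and stable lines was 0 in the reported fit and in every alternative run, the replicate block included, and that for unequal BubR1 and CDC20 effects was 0 likewise; leaving out a CDC20 line could not be fitted there. The count of genes that differed between pairs, 497, was 953 with an intensity trend and a robust prior and ran between 1 and 559 with a line left out; it was 1 without either line of pair 9515. The cause was not tested. The difference of Mme between pairs passed in 9 of 11 alternatives. Agtrap's difference between the BubR1 and CDC20 effects ran between -0.10 and 0.26 with a line left out. With lines or pairs left out, differences that changed sign ran between -0.15 and 0.072 for Agt, between -0.30 and 0.022 for Prep, between -0.17 and 0.012 for Acta2, between -0.20 and 1.09 for Mme and between -1.30 and 0.25 for Ptpn6. Others kept their sign but not their size, among them between 0.00083 and 0.11 for Prcp, between 0.061 and 0.26 for Stat3, between -0.33 and -0.072 for Grk5, between -0.40 and -0.057 for Thop1, between -0.47 and -0.080 for Fos and between -0.28 and -0.037 for Egr1; none of these differences had passed a test. Acta2 was at 0.013 with its probe sets averaged.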
